A study of Mus musculus with 35 samples.

Results

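The motile cilium axoneme is the microtubule shaft inside the beating cilia of airway cells, and its genes were followed here in whole lung lobes by symbol. A gene was a member if its symbol began with Cfap (cilia and flagella associated proteins), Dnah, Dnai or Dnaic (axonemal dynein heavy and intermediate chains), Drc (nexin-dynein regulatory complex), Rsph (radial spoke heads) or Tekt (tektins) followed by a digit. The rule found 57 of the 22211 genes in the table, namely 25 Cfap, 16 Dnah, 2 Dnaic, 2 Drc, 7 Rsph and 5 Tekt symbols. All 57 passed the filter on low values, a value of at least 1 in at least 3 libraries, which kept 16786 genes. Tekt3 came closest to being removed, with 18 of 35 libraries at or above 1. One of the 16 Dnah symbols, Dnah2os, is an antisense RNA that overlaps 312 exon bases of Dnah2 and not a dynein.

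The samples were perfused left lung lobes of 35 male mice aged 7 to 9 weeks, 1 library per mouse. Wild-type C57BL/6 mice received control IgG or anti-Ly6G (clone 1A8), an antibody that depletes neutrophils, at 3 µg per g body weight. The remaining mice received DT (diphtheria toxin) at 10 ng per g and carried MRP8-Cre and a floxed iDTR, a toxin receptor that Cre switches on in cells that use the MRP8 promoter, mainly neutrophils and other myeloid cells. All mice were injected under the skin on 2 consecutive days and lobes were taken on the third day at 1 clock time. Animals of the normal facility were then at ZT4, which is 4 hours into the light phase, and those in cabinets with inverted light at ZT16, so time of day and housing went together throughout. The control and anti-Ly6G groups held 7 mice per time, 3 from July and 4 from September. A later April batch supplied the DT mice, 4 for ZT4 and 3 for ZT16. DT, genotype and batch therefore cannot be told apart, and the April batch held no control mice.

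A motile cilium has a ring of outer microtubule doublets around a central pair. Outer and inner dynein arms on each doublet pull on its neighbour, radial spokes and the central pair regulate the stroke, and the nexin-dynein regulatory complex links doublets. Proteins inside the doublet wall, tektins among them, stiffen it. In the lung these structures belong to multiciliated cells of the conducting airways, where beating cilia clear mucus. Their genes are switched on by FOXJ1, a forkhead factor, together with RFX factors that bind the X-box.

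Promoter letters of these factors were looked for as a description, because the factors are known regulators of such genes. Whether a match goes with a change in the data below was not tested. RefSeq promoters on GRCm38.p6, from 250 bases before to 50 bases after the start, were found for 47 of the 57 members. A full-length X-box, the motif of RFX factors, was searched on both strands with at most 2 of its 14 letters different. It was present in 4 of 47 members (8.51%), against 378 of 27025 genes with a RefSeq promoter (1.4%). Those 27025 genes were not filtered on expression, whereas all members had passed the filter on low values. The arms GTTNCC and GGNAAC, with 1 to 3 bases between them, were found in 0 of 47 members and in 0.903% of the 27025 genes. That search allowed no mismatch at the fixed letters, so it also misses the matches of the first search. The forkhead letters TGTTTAC or TGTTTGC, which do not overlap the X-box letters, were present in 8 of 47 members (17%) against 9.47% of the 27025 genes. A match describes letters only. The members with forkhead letters were Cfap20, Cfap221, Cfap43, Dnah17, Tekt1, Tekt2, Tekt3 and Tekt4.

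Shown here are windows from 150 bases before to 10 bases after the start for the closest X-box (Cfap44), for the only member with both motifs (Cfap221) and for 2 tektins with forkhead letters, with the motifs in capitals and each read 5′ to 3′ along the gene's strand.
Cfap44: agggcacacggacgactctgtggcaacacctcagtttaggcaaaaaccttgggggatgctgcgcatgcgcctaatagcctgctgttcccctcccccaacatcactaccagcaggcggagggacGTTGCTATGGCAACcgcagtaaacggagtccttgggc
Cfap221: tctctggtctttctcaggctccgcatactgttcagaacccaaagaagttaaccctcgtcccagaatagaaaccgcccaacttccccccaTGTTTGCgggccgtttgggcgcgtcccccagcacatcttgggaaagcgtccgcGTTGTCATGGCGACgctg
Tekt4: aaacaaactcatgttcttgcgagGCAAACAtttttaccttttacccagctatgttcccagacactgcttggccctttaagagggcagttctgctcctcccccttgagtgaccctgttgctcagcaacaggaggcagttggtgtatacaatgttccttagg
Tekt1: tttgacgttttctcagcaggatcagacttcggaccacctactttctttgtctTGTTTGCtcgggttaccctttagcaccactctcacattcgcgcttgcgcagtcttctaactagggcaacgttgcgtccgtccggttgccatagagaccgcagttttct

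The Cfap44 window lies at chr16:44394649-44394808 on the plus strand, and its X-box, 27 to 14 bases before the start and outside the exons, differs from the searched motif by 1 letter. The Cfap221 window lies at chr1:119997223-119997382 on the minus strand. Its X-box, with 2 letters different, spans the RefSeq start, and 8 of its bases lie in GENCODE M21 exons. The Tekt4 window lies at chr17:25471440-25471599 on the plus strand and the Tekt1 window at chr11:72361873-72362032 on the minus strand. The other X-boxes were GTTGCTATGGTAAC in Cfap45 (chr1:172521111-172521124, 2 letters different, within an exon of a longer annotated transcript) and GTCGTCATGGCAAC in Cfap161 (chr7:83794873-83794886, 2 letters different, 47 to 34 bases before the RefSeq start, with 8 bases inside the GENCODE M21 gene, which begins farther upstream).

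Values are the authors' normalised expression values, given without a stated length correction, so levels were not ranked between genes. Mean values over all libraries ran from 1.01 (Tekt3) to 111 (Cfap43). Variation between mice differed by member: the highest library was between 1.37 (Cfap43) and 5.53 (Dnah14) times the lowest. Sums of all values per library ran from 962649 to 1033550 and 15351 to 15802 genes per library reached 1. Genes of the cells that carry motile cilia were present: all 20 ciliated airway cell markers passed the filter, and the lowest Foxj1 value of any library was 87.0. Neutrophil markers summed to between 86.8 and 856 (median 133.5) in ZT4 control mice and between 75.9 and 131 (median 99.4) in ZT4 anti-Ly6G mice. Of these markers 0 of 12 passed the test between them. At ZT16 the median sums were 105.8 in control and 87.0 in anti-Ly6G mice. DT mice had sums of 93.4 to 115 at ZT4 and 84.7 to 106.7 at ZT16. In a whole lobe, fewer ciliated cells and less RNA per cell cannot be told apart.

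**Figure D1:**
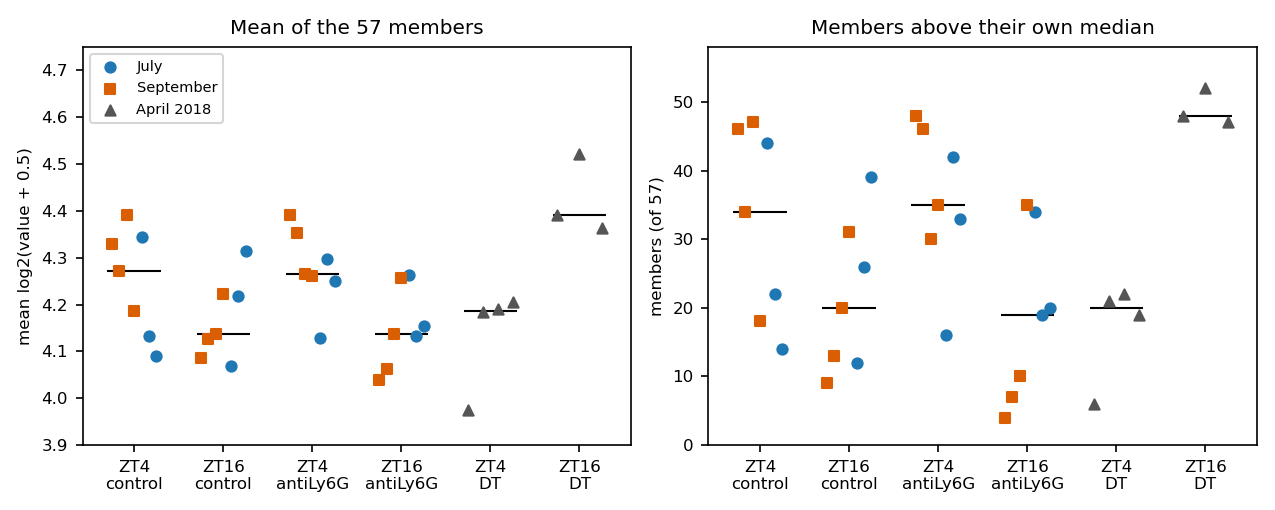
Each point is 1 library; the left panel plots the mean log2(value + 0.5) of the 57 members and the right panel the number of members above their own median over all 35 libraries, by group, with lines at group medians and colours for batch. The 3 ZT16 DT libraries (47 to 52 members above their median) lie above the 4 ZT4 DT libraries (6 to 22), while the groups of the other treatments overlap.

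The first comparison asked how the members differed between ZT16 and ZT4 in DT mice. Axoneme genes were higher at ZT16: 23 of 57 rose and 0 fell, where 5.3% of all tested genes rose and 9.98% fell (limma on log2(value + 0.5), Benjamini-Hochberg adjusted p under 0.05 over all 16786 genes). The median member change was 0.34 on the log2 scale against -0.01 over all genes, and 53 of 57 changes were above 0 (48.5% over all genes). In 32 of 57 members every ZT16 library lay above every ZT4 library, which held for 10.9% of all genes. The mean log2 value of the members was 3.97, 4.18, 4.19 and 4.21 in the 4 ZT4 DT libraries and 4.39, 4.52 and 4.36 in the 3 ZT16 DT libraries. One ZT4 library, the first of the table (ZT4_DT Apr#1), stood below the other 3, with 6 of 57 members above their median. The count depended on single mice, and so did the count over all genes. It was 8 of 57 without that library (2.05% of all genes rose in that refit), 15 without ZT16_DT Apr#1 (3.03%) and 6 without ZT16_DT Apr#2, the highest ZT16 library (2.6%). It was between 19 and 22 when any of the other 4 was left out, with 3.41% to 5.47% of all genes higher. Between 48 and 53 changes stayed above 0 in these 7 refits. The column name of ZT16_DT Apr#2 holds extra letters, and its group was read from its time and batch letters.

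Foxj1, the master regulator of the motile cilium programme, rose with them. Its values were 87.0, 92.8, 111 and 119 in the ZT4 DT libraries and 128, 161 and 136 in the ZT16 DT libraries, without overlap. The change was 0.47 ± 0.14 (SE, adjusted p = 0.0255, limma). That call was lost without ZT4_DT Apr#1 (adjusted p = 0.106), without ZT4_DT Apr#2 (adjusted p = 0.0726) and without ZT16_DT Apr#2 (adjusted p = 0.14).

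Of 7 genes for proteins of the doublet lumen and inner junction, 5 rose in DT mice, with a median change of 0.46. Cfap126 (Flattop), which also positions basal bodies, had ZT4 values of 17.2, 21.4, 21.1 and 21.5 and ZT16 values of 34.2, 32.8 and 29.2. All 3 ZT16 mice lay above all 4 ZT4 mice, a change of 0.65 ± 0.14 (SE, adjusted p = 0.00265, limma). Cfap45 was at 16.4, 17.6, 19.2 and 20.4 at ZT4 and 25.1, 30.4 and 25.1 at ZT16, again without overlap (0.53 ± 0.11, adjusted p = 0.00217). Its partner on the lumen side, Cfap52, moved from 11.8, 14.8, 17.1 and 15.6 to 22.3, 23.7 and 19.1 (0.54 ± 0.14, adjusted p = 0.00679). The lowest ZT16 mouse was above the highest ZT4 mouse here too. Cfap77 rose by 0.46 and Cfap53, which is also needed for left-right patterning, by 0.46 (adjusted p = 0.0465). Cfap53 was the only called member whose DT groups overlapped. Cfap161 (0.26) and Cfap20 (0.19), an inner junction protein, did not pass.

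Radial spoke genes followed, with 5 of 9 rising and a median of 0.37. Rsph10b was at 17.8, 20.95, 22.4 and 23.9 at ZT4 and 32.6, 29.9 and 30.1 at ZT16 (0.53 ± 0.12, adjusted p = 0.00235, limma). Its 3 ZT16 libraries lay close together and above all ZT4 libraries, but 11.4% of its 31-base words also occur in other transcripts, most in Gm42421, which overlaps it on the same strand. Rsph1, a spoke head protein, went from 27.5, 34.6, 37.1 and 35.8 to 47.9, 50.6 and 43.9 (0.49 ± 0.13, adjusted p = 0.0113), with no overlap. The other spoke head genes Rsph4a and Rsph9 rose by 0.43 and 0.37. Rsph3b rose by 0.37, but 68.5% of its 31-base words are shared with Rsph3a (0.19, not passing), so reads of the pair may have been split. Cfap206, which anchors a spoke base, had a change of 0.30 (adjusted p = 0.0745), Rsph14 0.44 (adjusted p = 0.159) and Cfap61, of the spoke stalk complex, 0.14.

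The inner-arm tether and modifier genes rose in 4 of 5 cases. Cfap100, a modifier of inner arms, had the smallest adjusted p of all members: its values were 17.97, 19.5, 20.98 and 22.1 at ZT4 and 32.7, 34.9 and 32.8 at ZT16. Both groups were tight and far apart, a change of 0.72 ± 0.13 (SE, fold 1.65, adjusted p = 0.000397, limma). Cfap57 rose by 0.48, and the tether pair Cfap43 and Cfap44, mutated in infertility with malformed sperm tails, by 0.21 and 0.35. Cfap43 had the smallest change called among the members, from 101, 111, 105 and 105 to 124, 120 and 122, and was the member that varied least between mice. Cfap73 was at 0.27 and did not pass.

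Both members with Drc symbols, of the nexin-dynein regulatory complex, rose, Drc7 by 0.45 ± 0.12 (adjusted p = 0.00851, limma) and Drc1 by 0.34. Of 5 central pair genes, 3 rose: Cfap221 by 0.47, Cfap46 by 0.43 and Cfap54 by 0.35. Cfap74 (0.36) and Cfap69 (0.22) did not pass. Among tektins, filament proteins of the doublet wall, Tekt4 rose by 0.59 ± 0.16 (adjusted p = 0.0123), from 10.1, 11.3, 9.66 and 12.1 to 18.4, 16.8 and 14.2. Tekt1 (0.45, adjusted p = 0.0503) and Tekt2 (0.40, adjusted p = 0.0823) had groups that did not overlap but missed the threshold, Tekt3 was at 0.07, and Tekt5, best known from sperm, was at -0.28. Among genes to which no role was assigned here, Cfap70 rose by 0.52 (adjusted p = 0.00927) and Cfap58 (0.37), Cfap157 (0.34), Cfap36 (0.09), Cfap99 (0.08), Cfap97 (-0.11) and Dnah2os (-0.35) did not pass.

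Fewer calls were made among the dynein motors, a difference from the other members that was not tested. Of 15 heavy chain genes 2 rose, both of the inner arm: Dnah1 by 0.39 ± 0.11 (adjusted p = 0.0158, limma) and Dnah2 by 0.40 ± 0.12 (adjusted p = 0.0164). The 9 inner-arm heavy chains were all above 0 (median 0.32), from Dnah6 at 0.04 to Dnah7c at 0.43. Dnah7a, Dnah7b and Dnah7c share 40% to 61.6% of their 31-base words with other transcripts, so their separate values are uncertain. None of the 5 outer-arm heavy chains passed. Dnah5, whose loss is a leading cause of primary ciliary dyskinesia, had ZT4 values of 79.0, 93.7, 93.7 and 89.3 and ZT16 values of 79.9, 111 and 95.5. The groups overlapped, with the first ZT16 library as low as the lowest at ZT4 (0.09 ± 0.11, adjusted p = 0.619). Its outer-arm partners Dnah9 (0.07 ± 0.11, adjusted p = 0.707) and Dnah11 (0.09 ± 0.12, adjusted p = 0.642) were likewise near 0, as was Dnah17 at 0.01. Dnah8, used mainly in sperm, was at -0.46 (adjusted p = 0.0995). The outer-arm intermediate chains Dnaic1 (0.33) and Dnaic2 (0.32) also missed the threshold, with changes nearer those of other members. Dnah10, of the inner arm, was at 0.32 (adjusted p = 0.0924).

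Heavy chain genes are also long. Their exons cover 12009 to 26820 bases (median 14968), against a median of 3000 bases for the other 42 members, and their median DT change was 0.17 against 0.36. Over all tested genes with at least 12000 exon bases (837 genes, a set chosen after the heavy chain values were seen) the median DT change was -0.16, with 220 lower and 17 higher, and over shorter genes it was 0.00. In control mice the long genes had a median change of 0.05 and in anti-Ly6G mice of 0.02. The part of transcript length in the smaller heavy chain changes was not tested.

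**Figure D2:**
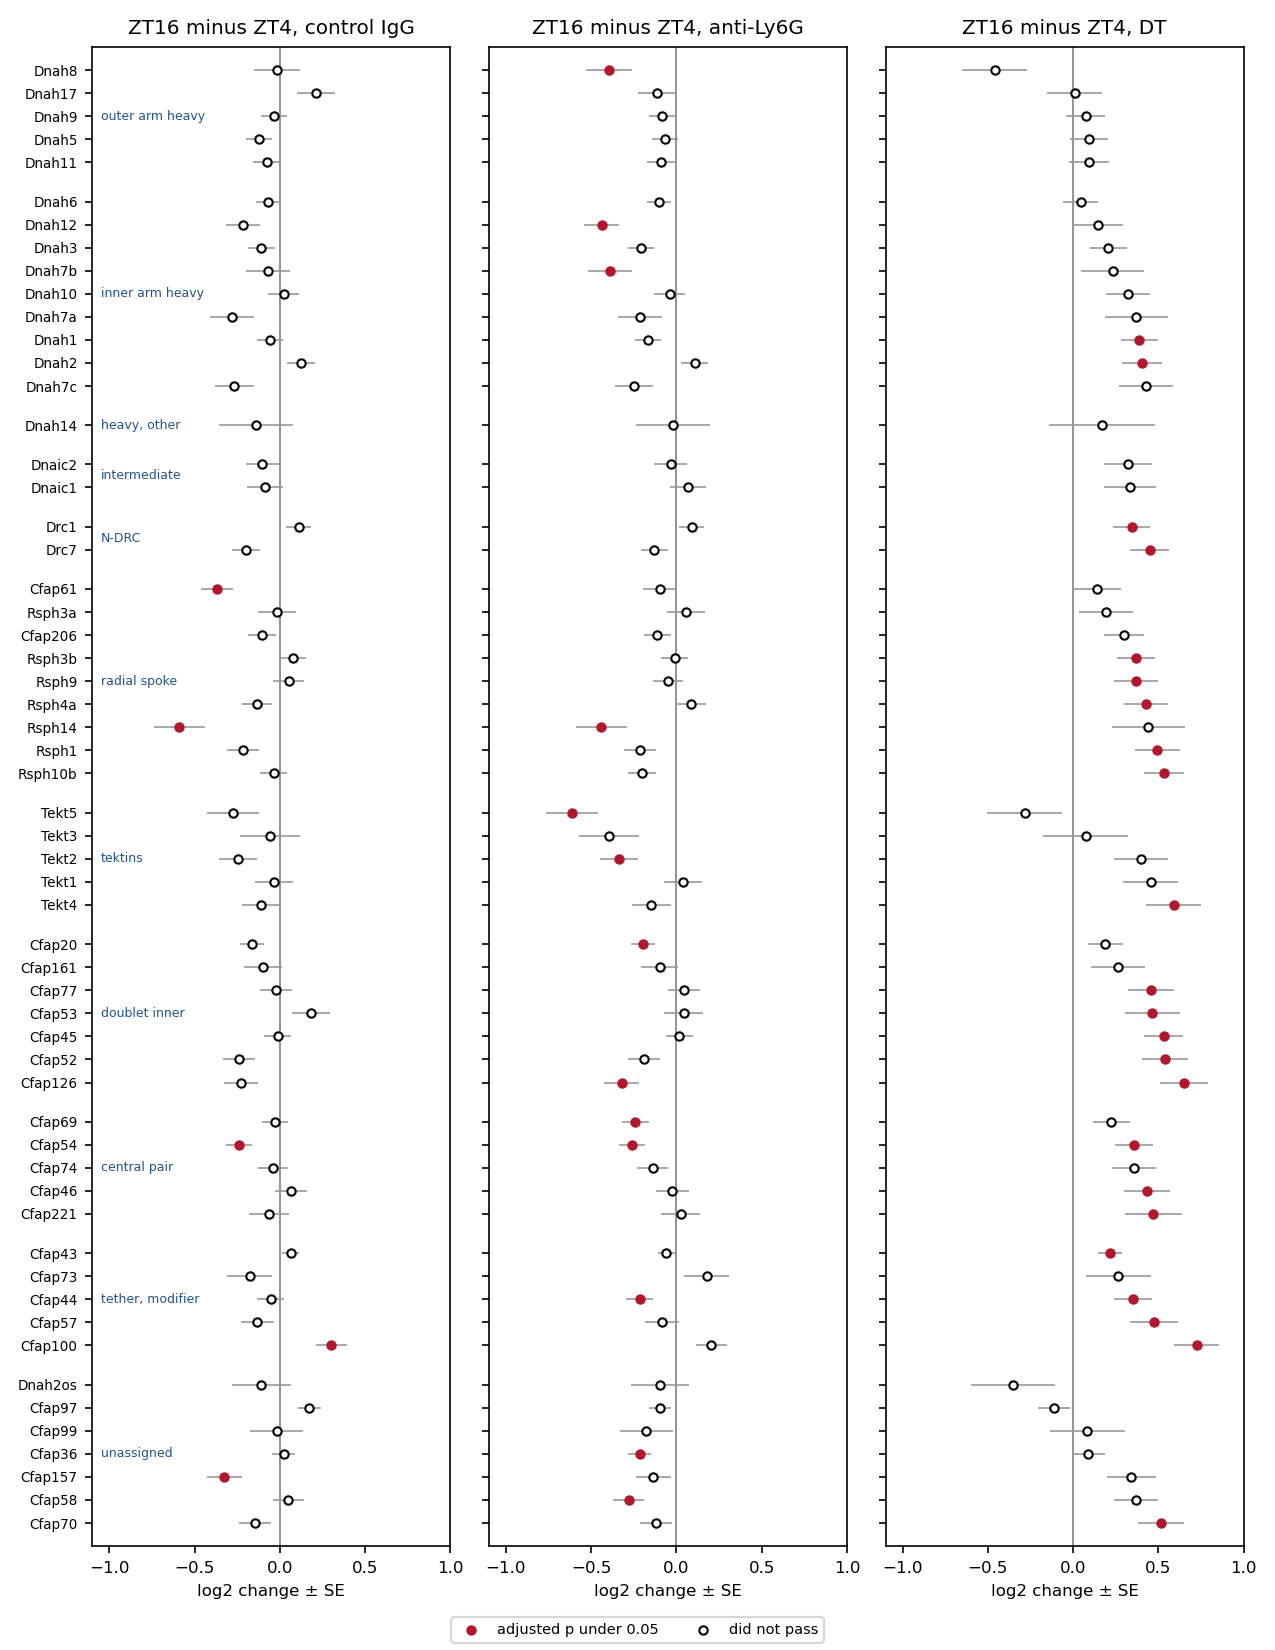
Each row is 1 member, ordered by role from outer-arm heavy chains at the top to unassigned genes at the bottom; points are log2 changes from ZT4 to ZT16 with SE bars in control, anti-Ly6G and DT mice, filled where the adjusted p is under 0.05. Called changes are all to the right in DT mice (23 members), all to the left in anti-Ly6G mice (13 members), and 1 right and 4 left in control mice.

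**Figure D3:**
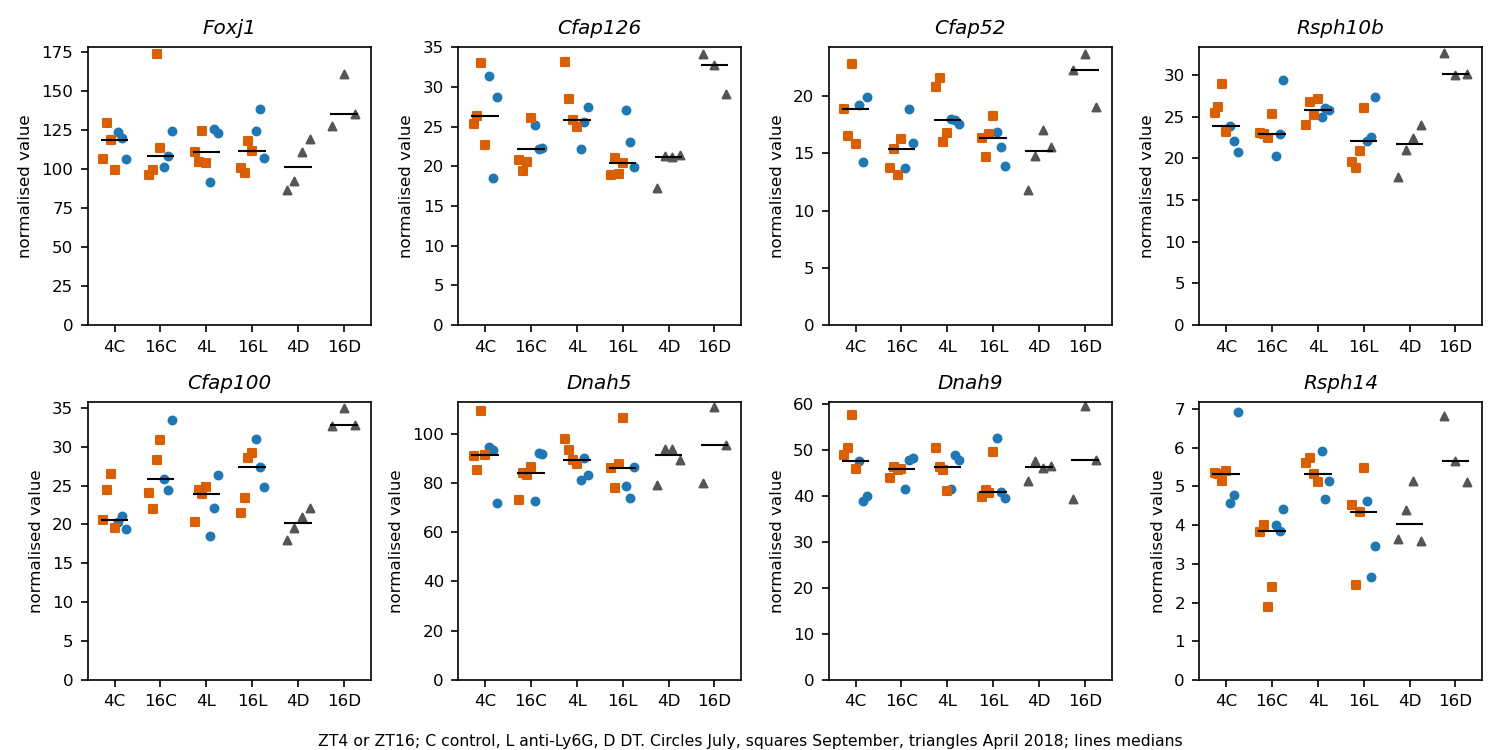
Normalised values of Foxj1 and 7 members in each library by group, with lines at medians, circles for July, squares for September and triangles for April. Cfap126, Cfap52, Rsph10b and Cfap100 show the 3 ZT16 DT mice above the 4 ZT4 DT mice, Dnah5 and Dnah9 show overlapping DT groups, and Rsph14 shows all 7 ZT16 control mice below all 7 ZT4 control mice.

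In control mice the same time comparison gave few calls. Of 57 members 1 rose and 4 fell (8.77% called either way, against 9.04% of all genes, with 4.65% higher and 4.38% lower), a share near the background. The median member change was -0.07, and 13 of 57 were above 0 (49.5% over all genes). Rsph14, a radial spoke protein gene, fell by 0.59 on the log2 scale (± 0.15 SE, adjusted p = 0.00974, limma): its lowest, median and highest values were 4.58, 5.32 and 6.94 at ZT4 and 1.88, 3.84 and 4.43 at ZT16. It was the only member whose control groups did not overlap, which held in the lower direction for 1.02% of all genes. Cfap61 fell by 0.37 (± 0.10 SE, adjusted p = 0.0116), from 11.3, 12.8 and 16.6 to 8.33, 10.1 and 12.4, with partial overlap. Cfap157 fell by 0.32 and Cfap54, a large central pair protein, by 0.24. Cfap100 was the 1 member that rose, by 0.30 ± 0.09 (adjusted p = 0.0316), from 19.4, 20.5 and 26.5 to 22.01, 25.9 and 33.4. Foxj1 was at 0.00 ± 0.10, with ZT4 values of 99.3, 119 and 130 and ZT16 values of 96.5, 108 and 174.

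Fitted by batch, the median member change in July control mice was 0.00 with 0 of 57 called, where 1.02% of all genes rose and 0.822% fell. In September control mice it was -0.14 with 2 called lower and 46 of 57 below 0, where 1.42% of all genes rose and 1.45% fell. The difference between the batches was not tested. Rsph14 was at -0.35 in July and -0.77 in September, Cfap61 at -0.21 and -0.49, and Cfap100 at 0.44 and 0.20. Rsph14 and Cfap61 kept their call whichever control mouse was left out, whereas Cfap100 lost it in 8, Cfap157 in 9 and Cfap54 in 10 of 14 refits. The count over both batches was between 2 and 5 when single control mice were left out. It was 2 without ZT4_control Sep#1, Sep#4 or Jul#1, and 3 without ZT4_control Sep#3 or without ZT16_control Sep#1, Sep#3, Jul#1 or Jul#2. Shares of all genes called in these refits are not given, so a lower count is not a result about the members.

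In anti-Ly6G mice 13 of 57 members fell at ZT16 and 0 rose (22.8% lower, against 10.4% of all genes lower, 10.6% higher and 20.9% either way). The median member change was -0.11 against -0.02 over all genes, and 12 of 57 were above 0 (46.7% over all genes). Dnah12, an inner-arm heavy chain, had the smallest adjusted p: its lowest, median and highest values were 34.2, 41.1 and 52.1 at ZT4 and 22.6, 29.6 and 39.2 at ZT16. It fell by 0.44 (± 0.10 SE, adjusted p = 0.00201, limma), with the upper ZT16 mice inside the ZT4 range. Tekt5 fell by 0.61 (± 0.15 SE, adjusted p = 0.00416), from 3.94, 5.58 and 7.42 to 2.61, 3.63 and 4.24. Dnah8 was the only member without overlap (2.06% of all genes in the lower direction), at 6.48, 7.62 and 12.6 against 5.55, 5.91 and 6.46. It fell by 0.40 (adjusted p = 0.0318).

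The other members that fell came from several structures. They were the central pair genes Cfap54 (-0.26) and Cfap69 (-0.24), the doublet genes Cfap126 (-0.32) and Cfap20 (-0.20), the tektin Tekt2 (-0.34), the inner-arm heavy chain Dnah7b (-0.39), the spoke gene Rsph14 (-0.44), the tether gene Cfap44 (-0.22), and Cfap36 (-0.22) and Cfap58 (-0.28), which had no role assigned. Foxj1 was at 0.02 ± 0.10, from 91.6, 111 and 126 to 97.8, 112 and 138. In July anti-Ly6G mice the median was -0.02 with 0 of 57 called, where 2.43% of all genes rose and 2.32% fell. In September it was -0.18 with 6 called lower and 51 of 57 below 0, where 5.39% of all genes rose and 3.35% fell. Dnah12, Tekt5 and Cfap54 kept their call whichever anti-Ly6G mouse was left out, whereas Dnah8 lost it in 5 and Cfap44 in 8 of 14 refits. Of the September ZT16 libraries, 3 had 4, 7 and 10 members above their own median and 1 had 35. The count was 7 without ZT4_antiLy6G Sep#1, ZT16_antiLy6G Sep#1 or ZT16_antiLy6G Jul#2, 8 without ZT4_antiLy6G Sep#2, and at most 15 in the other refits. The share of all genes called in these refits is not given, so a lower count is not a result about the members.

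Over the 3 treatments, 33 of 57 members had changes below 0 in control and anti-Ly6G mice and above 0 in DT mice. Dnah2, Cfap53, Cfap100 and Drc1 were above 0 in all 3, and Dnah8, Tekt5 and Dnah2os below 0 in all 3. Rsph14 and Cfap54 were called lower in both control and anti-Ly6G mice. Dnah2 and its antisense neighbour Dnah2os had changes of opposite sign in each treatment, and it is not stated whether counting used strand.

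The difference between time changes was tested directly. Against control mice, the change in DT mice was more positive in 19 of 57 members and more negative in 0 (4.93% of all genes higher, 8.86% lower). Cfap126 differed by 0.88 ± 0.17 (SE, adjusted p = 0.00165, limma), Cfap52 by 0.78, Drc7 by 0.65, Cfap54 by 0.59, Rsph1 by 0.71, Rsph10b by 0.57 and Cfap70 by 0.66. Rsph14, which did not pass in DT mice, differed by 1.03 ± 0.26 (adjusted p = 0.00891). Cfap45 (0.54), Cfap157 (0.67), Rsph4a (0.56) and Tekt4 (0.70) also passed. Cfap100, which rose in both treatments, differed by 0.42 (adjusted p = 0.0724). Foxj1 differed by 0.47 ± 0.18 and missed the threshold (adjusted p = 0.0714). The count was 12 without ZT4_DT Apr#1 and 11 without ZT16_DT Apr#2, with the share of all genes called in these refits not given.

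Against anti-Ly6G mice, 27 of 57 members had a more positive change in DT mice and 0 a more negative one (7.44% of all genes higher, 11.6% lower). This comparison uses the same DT mice as the one before. Cfap126 differed by 0.97 ± 0.17 (SE, adjusted p = 0.000286, limma) and Rsph10b by 0.73 ± 0.14 (adjusted p = 0.000559). Cfap54 (0.62), Cfap52 (0.73), Rsph1 (0.71), Cfap44 (0.56), Dnah1 (0.55), Drc7 (0.58), Cfap58 (0.65), Cfap70 (0.64), Tekt2 (0.73) and Tekt4 (0.74) also passed. Dnah5, Dnah9 and Dnah11 passed in neither comparison, and Foxj1 was at 0.45 (adjusted p = 0.07). The count was 18 without ZT4_DT Apr#1 or ZT16_DT Apr#2, again without the share of all genes called.

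Anti-Ly6G against control IgG at the same time gave no call. At ZT4, 0 of 57 members and 0 of 16786 genes passed (limma), and 5 members had an unadjusted p under 0.05 (8.77%, against 7.06% of all genes). Those of smallest p were Dnah8 (0.34 ± 0.13), Rsph4a (-0.22 ± 0.09) and Cfap97 (0.16 ± 0.07), each with an adjusted p of 0.663. At ZT16, 0 passed again, and 1 member had an unadjusted p under 0.05 (1.75%, against 4.18%). Dnah7b (-0.28 ± 0.13), Cfap73 (0.26 ± 0.13) and Cfap74 (-0.16 ± 0.09) had the smallest p, with adjusted p = 0.966. The difference of the 2 time changes, anti-Ly6G minus control, was called in 0 members, with 4 at an unadjusted p under 0.05 (7.02%, against 6% of all genes). Cfap97 (-0.27), Cfap58 (-0.33) and Cfap36 (-0.24) came first, with adjusted p = 0.812. Robust limma also called 0 members in these 3 comparisons. The 13 members called lower over time after anti-Ly6G and the 4 called lower after IgG are thus not shown to differ between the treatments.

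Other genes of ciliated cells also rose in DT mice, where 5.3% of all tested genes rose and 9.98% fell. Of 51 axoneme and dynein assembly genes with other names, 25 rose and 0 fell (median 0.35), led by Lrrc23 (0.65), Gas8 (0.36), Mdh1b (0.72) and the assembly factor Zmynd10 (0.53). Of 20 ciliated airway cell markers, 14 rose (median 0.45), led by Cdhr4 (0.56), Aldh3b1 (0.42), Cdhr3 (0.46) and Ccdc153 (0.52). Their summed value was 2076 to 2657 at ZT4 and 2797 to 3418 at ZT16. The median of this sum was also higher at ZT16 in control mice (2664 and 2960) and anti-Ly6G mice (2623 and 2893). Yet 16 of the 20 markers in control mice and 15 in anti-Ly6G mice had changes below 0, so the sum does not follow most markers. Of 17 genes of the multiciliated transcription programme, 6 rose, among them Trp73 (0.54), Myb (0.51), Ccno (0.79) and Ccdc78 (0.50). Of 29 genes of intraflagellar transport, which builds cilia of all kinds and is used by many cells, 5 rose (median 0.13): Ttc26 (0.44), Ttc30b (0.44), Ift46 (0.33) and Ift140 (0.25) came first. Without ZT4_DT Apr#1 the counts were 7 of 51 axoneme genes and 5 of 20 markers, and without ZT16_DT Apr#2 they were 12 and 9. Against control mice the DT change was more positive in 24 of the 51 axoneme genes and 15 of the 20 markers. It was so in 7 of 17 programme and 4 of 29 transport genes (4.93% of all genes higher, 8.86% lower). Against anti-Ly6G mice the counts were 28, 17, 8 and 7 (7.44% of all genes higher, 11.6% lower). In these lists 0 genes had a more negative change.

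Markers of neighbouring airway cells moved in the same direction, beside the same shares of all genes (5.3% higher and 9.98% lower). Of 16 club and secretory cell markers 10 rose in DT mice (median 0.50), led by Cckar (0.51), Scgb3a1 (1.01), Scgb3a2 (0.47) and Lypd2 (0.61). Their summed value was 29870 to 39600 at ZT4 and 45370 to 55170 at ZT16, and ZT4_DT Apr#1 was the lowest library for club markers, ciliated markers and axoneme genes alike. Without that library 3 of 16 club markers rose, and without ZT16_DT Apr#2 it was 6. The DT change of club markers was more positive than in control mice in 9 of 16 and than in anti-Ly6G mice in 8. It was more negative in 0. Over all genes 4.93% and 7.44% were more positive, and 8.86% and 11.6% more negative. Of 6 basal cell markers Krt14 (1.25) and Krt15 (1.89) rose, at summed values of 5.78 to 7.18 and 9.47 to 16.7. In anti-Ly6G mice 2 of 6 rose as well, and in control mice 0. The median sum at ZT4 and ZT16 was 7.77 and 11.3 in control mice and 7.725 and 11.5 in anti-Ly6G mice. The DT change was called different from that in control mice in 0 of 6, and more positive than in anti-Ly6G mice in 1. Of 14 alveolar type 2 markers 8 fell in DT mice and 0 rose (median -0.39), led by Cxcl15 (-0.85), Lpcat1 (-0.39), Abca3 (-0.51) and Slc34a2 (-0.50). Their summed values overlapped at 30280 to 36360 and 30060 to 33790. Against control mice the DT change was more positive in 1 of the 14 and more negative in 1, and the counts against anti-Ly6G mice were the same. For most of these markers the DT fall is thus not shown to differ between treatments. Among alveolar type 1 markers 2 of 12 fell in DT mice, Emp2 (-0.54) and Clic5 (-0.45). Of 12 heart muscle markers 1 fell, Myh7 (-0.56), and of 10 mesothelial markers Krt19 (0.59) rose and Upk1b (-0.40) fell. For mesothelial markers the DT change was more positive than in control mice in 1 of 10 and than in anti-Ly6G mice in 5. It was more negative in 0. Of 8 neuroendocrine and tuft markers, 12 neutrophil markers and 2 germ cell markers, 0 passed. The share of airway tissue in each lobe was not measured, and its part in the axoneme changes was not tested.

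**Figure D4:**
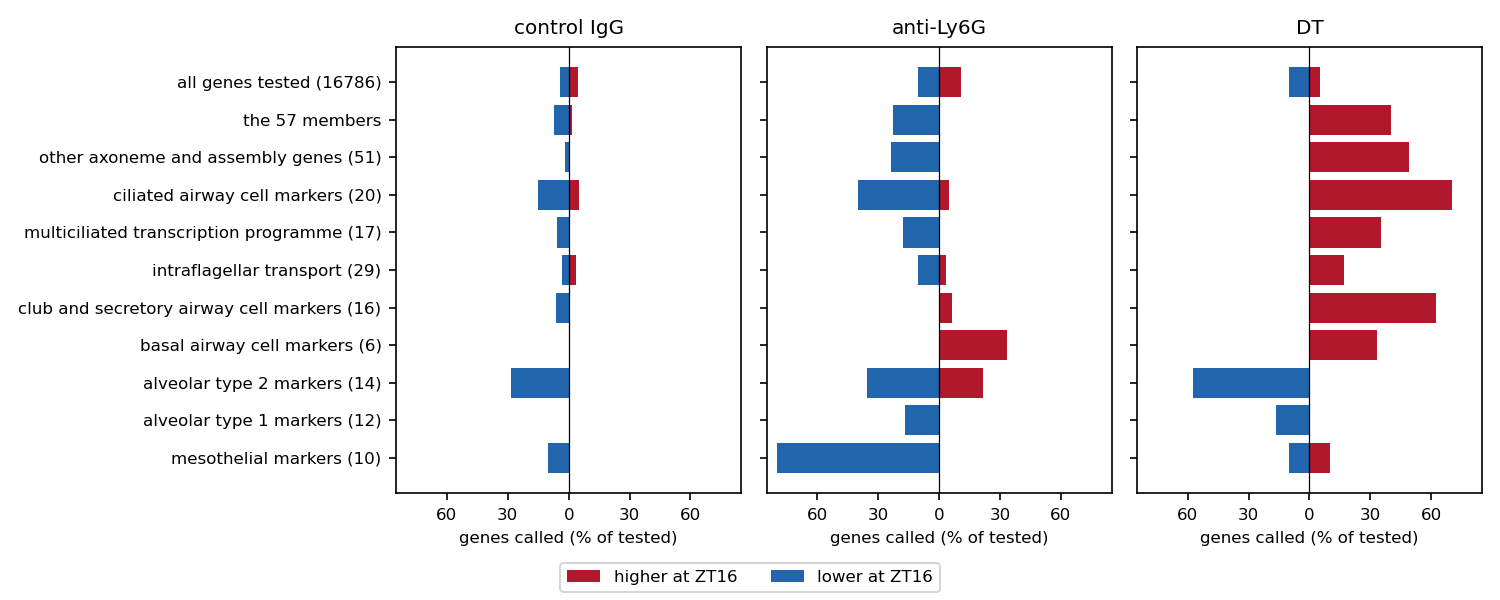
Bars give the share of genes called higher (right) and lower (left) at ZT16 among all tested genes, the 57 members and 9 lists of related genes or cell markers, with the number tested in brackets and 1 panel per treatment. In DT mice the members, ciliated markers and club markers are called higher and alveolar type 2 markers lower, while in anti-Ly6G mice the called members are all lower.

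In control mice the lists gave small counts, where 4.65% of all tested genes rose and 4.38% fell. Ciliated markers showed 1 gene higher, Sec14l3 (0.31), and 3 lower, Pifo (-0.32), Lrriq1 (-0.55) and Mlf1 (-0.29). Of the 51 other axoneme genes 1 fell, Armc4 (-0.37), an outer-arm docking protein. The 1 programme gene called was Gmnc, an early switch of the multiciliated fate, at -0.76 ± 0.20 (adjusted p = 0.0126, limma). In anti-Ly6G mice, where 10.6% of all tested genes rose and 10.4% fell, 12 of 51 other axoneme genes fell and 0 rose. They were led by Lrrc6 (-0.54), Armc4 (-0.37), Spag16 (-0.37) and Wdr63 (-0.27). Ciliated markers showed 8 lower and Sec14l3 (0.29) higher there, and Gmnc fell by 0.93 (± 0.20 SE, adjusted p = 0.000907). Of 16 club markers 1 rose, Cbr2 (0.36), and 0 fell. Mesothelial markers, from the lobe surface, fell in 8 of 10 cases in anti-Ly6G mice, at summed values of 849 to 1020 at ZT4 and 679 to 884 at ZT16. Alveolar type 2 markers showed 3 higher and 5 lower there, and 4 of 14 lower in control mice. The part of these other cells in the axoneme values was not tested.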

How the data were processed

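Lobe RNA went through a single-cell amplification kit before Illumina library preparation, per the labels' protocols. The submitters' processing notes list kallisto 0.43.1, RSEM 1.2.20, the GRCm38 build, cutadapt and CASAVA 1.8.2 but give none of them a role. The authors deposited normalised expression values, handled as a signal that is never negative. Their scaling, any batch adjustment and the use of strand are not given in the sources used here, and depth is unknown. Values already aligned between batches can make standard errors too small.

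Members and lists were chosen with earlier results of these data known. limma 3.58.1 in R 4.3.3, with the trend option, was fitted to log2(value + 0.5) of all 35 libraries for 16786 genes (5425 removed), with 1 mean per group and a term for the September batch (28 residual degrees of freedom). Tests were two-sided at an adjusted p of 0.05 over all genes. Every adjusted p comes from this fit, except those of named refits without a library or within a batch. Changes on this scale understate those of low genes. The fit was also run on simulated data without a batch effect. That run covered comparisons between groups and not the differences of time changes. DT levels were not tested against other treatments. Libraries are named by group, batch and table order, since column numbers differ from those of the titles in most groups. 1 April column with extra letters in its name was taken as a ZT16 DT library from its time and batch letters. Libraries were taken as separate mice, and no pair was identical (highest correlation 0.995).

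Named were up to 12 called members per direction and comparison, a fixed list of well-known members, per role those of highest and lowest mean, Foxj1, up to 4 genes of smallest p per list, and 3 members where none passed. All 57 members were found in GENCODE M21. Shared 31-base words were counted against its transcripts. Alternatives were pseudocounts, filters, scalings, batch handling, robust fitting and leaving out each library.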

Additional observations from a re-analysis of the deposited data

Results flagged for a closer look

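Single libraries stood apart from the rest of their group in 11 of 205 gene and group combinations looked at (log2 values, gap to the nearest library over the group's range). Chance alone sets apart about 1 in 20. Of these, 6 were the lowest value of their group and came from ZT4_DT Apr#1: Cfap126 at 17.2 (others 21.1 to 21.5), Cfap54 at 22.8 (others 25.3 to 25.6), Cfap70 at 11.8, Cfap77 at 7.91, Tekt2 at 10.4 (others 15.7 to 16.6) and the mean of the 57 members at 3.97 on the log2 scale (others 4.18 to 4.21). ZT4_control Jul#3 had the lowest Cfap157 (9.76) and the highest Rsph14 (6.94) of its group. ZT16_control Jul#3 had the highest Cfap58 (14.9) and Rsph1 (41.9), and ZT16_antiLy6G Jul#1 the highest Cfap70 (20.3, others 12.2 to 14.7).

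The time change differed between treatments in limma's interaction test. Against control mice the DT change was more positive in 19 members, with differences on the log2 scale of 0.88 for Cfap126, 0.78 for Cfap52, 0.65 for Drc7, 0.59 for Cfap54, 0.71 for Rsph1, 0.57 for Rsph10b, 0.66 for Cfap70, 1.03 for Rsph14, 0.54 for Cfap45, 0.67 for Cfap157, 0.56 for Rsph4a and 0.70 for Tekt4. Against anti-Ly6G mice it was more positive in 27 members, with 0.97 for Cfap126, 0.73 for Rsph10b, 0.62 for Cfap54, 0.73 for Cfap52, 0.71 for Rsph1, 0.56 for Cfap44, 0.55 for Dnah1, 0.58 for Drc7, 0.65 for Cfap58, 0.64 for Cfap70, 0.73 for Tekt2 and 0.74 for Tekt4. The interaction terms share the DT mice, whose genotype and batch go with the treatment.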

How the results depend on the processing

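No called change of a named member changed sign under the alternatives run. The member median did so in control mice (-0.0704, but 0.0039 with 29 of 57 above 0 in July), and in 2 comparisons without calls when single mice were left out: -0.0046 to 0.0763 for anti-Ly6G against control at ZT4 and -0.0506 to 0.011 at ZT16. Members called in control mice over time were 5, and 3 without a filter on low values, 3 with the compared groups only, 0 in July and 2 in September libraries. In anti-Ly6G mice they were 13, and 0 in July and 6 in September. Leaving out each library in turn gave 2 to 5 in control, 7 to 15 in anti-Ly6G and 6 to 22 in DT mice, 11 to 24 for DT minus control and 18 to 30 for DT minus anti-Ly6G, and 0 throughout for anti-Ly6G against control at either time and for their interaction. Of these refits, the share of all genes called higher is given above for the DT time change only. The cause of these shifts was not tested, and refits without a library or within a batch also held fewer samples. Under the pseudocounts, filters, scalings, batch handling and robust fit the DT count was 20 to 26. Cfap100, Cfap45, Rsph10b, Cfap126 and Cfap52 were called in DT mice in every refit, 5 of the 12 named. In control mice 2 of 5 named calls and in anti-Ly6G mice 3 of 12 held in every refit without 1 library, and 0 in either held under every alternative. No scaling moved the median of all genes by more than 0.03 on the log2 scale. Numbers in the column names equalled those of the titles in both groups of 1 comparison only, September anti-Ly6G against control at ZT16. There a replicate block, chosen after seeing the data, gave 0 members and 0 genes called, as did those libraries without it (1147 genes at an unadjusted p under 0.05 with the block). Mice with the same number are different animals, and their deviations correlated at 0.01 to 0.13, with 2 of 4 correlating best with their own number, so the number was not taken to pair them. No paired analysis was possible for the other comparisons because the groups' column numbers differ from those of the titles. Depth is unknown, so low members such as Tekt3 carry an unknown counting error, and 7 DT mice from a single batch limit what the DT comparison can show.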
